A study of Rattus norvegicus with 32 samples.

Results

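The glycolysis genes described here are 6 of 10 enzymes of the pathway from glucose to lactate, namely Hk1, Hk2, Aldoa, Aldoc, Pkm and Pfkm, measured by 10 probe sets among the 8799 on a rat expression array, which names 4736 genes on probe sets with a single symbol. A probe set is a group of short probes designed for one transcript, and a probe set was taken as a member when its gene symbol was one of Hk1, Hk2, Aldoa, Aldoc, Pkm, Ldha, Pfkm, Gapdh, Gpi or Tpi1. Hk1, Hk2, Aldoc and Pfkm had 2 probe sets each, and Aldoa and Pkm had 1 each. Gapdh, Ldha and Tpi1 appeared only on 3 probe sets that carry the symbols of related genes as well, which are given separately as uncertain, and no probe set is named for Gpi here.

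Total RNA of normal rat mammary gland was hybridised to 30 single-sample arrays in 6 groups of 5. The groups were F1 rats, bred by crossing Cop with F344, and 5 inbred strains, namely Cop, F344, ACI, BUF/N and WF. There were also 1 Cop pool and 1 F344 pool, which entered no test. No group carried a treatment or an engineered allele, and the labels give no age, sex or reproductive stage. The question behind the series is how strains differ in their inherited risk of mammary tumours. As background, Cop is known as a resistant strain and F344, BUF/N and WF as susceptible strains. Whether each array stands for its own animal is not in the labels, and all p-values measure only the spread between these samples.

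Glycolysis splits glucose into pyruvate, which lactate dehydrogenase can turn into lactate. Hexokinases trap glucose in the cell as glucose 6-phosphate, phosphofructokinase commits it to the pathway, aldolases cut the sugar into a pair of smaller ones, and pyruvate kinase makes pyruvate at the last step. Several steps have isoenzymes from separate genes. Hk1 is broadly expressed, while Hk2 is the insulin-responsive form of skeletal muscle and adipose tissue. Aldoa is the aldolase of muscle and most tissues, and Aldoc is best known from brain. In mammary gland, glucose also feeds lactose and milk fat synthesis in the epithelium and fat storage in the adipocytes that surround it.

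The 2 Aldoc probe sets and 1 of Hk2 had the smallest p-values of the members in the test over all groups, and the regions around the starts of these genes are shown for that reason. RefSeq sequences of the GRCr8 build were searched on both strands from 250 bases before to 50 bases after the annotated start for ACGTG, the core bound by hypoxia-inducible factors, for CACGTG, an E-box that contains it, and for GGGCGG, the GC box. Motifs are in capitals as read on the printed strand, so that CACGT is the reverse complement of ACGTG.
Hk2 chr4:116841226-116841525, minus strand: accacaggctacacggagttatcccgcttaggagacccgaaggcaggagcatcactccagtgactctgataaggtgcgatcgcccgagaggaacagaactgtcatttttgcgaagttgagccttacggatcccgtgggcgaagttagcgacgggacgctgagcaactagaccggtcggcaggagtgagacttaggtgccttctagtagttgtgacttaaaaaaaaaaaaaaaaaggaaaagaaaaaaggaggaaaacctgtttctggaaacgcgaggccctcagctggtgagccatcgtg
Aldoc chr10:63715294-63715593, plus strand: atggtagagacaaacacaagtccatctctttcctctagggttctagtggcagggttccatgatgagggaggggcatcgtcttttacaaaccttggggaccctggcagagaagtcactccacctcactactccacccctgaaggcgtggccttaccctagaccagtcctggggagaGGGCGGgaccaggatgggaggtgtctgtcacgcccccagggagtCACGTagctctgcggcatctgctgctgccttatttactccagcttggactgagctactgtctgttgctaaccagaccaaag
The Hk2 window held none of the 3 motifs. The Aldoc window held 1 ACGTG core, at position -31 from the start, and 1 GC box, at position -75. Of 33469 rat promoters of this length, 19.3% held ACGTG, 6.42% held CACGTG and 33.1% held GGGCGG. A match describes letters only and does not show binding.

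Of the 10 member probe sets, 6 differed among the 6 groups in limma's moderated F test with Benjamini-Hochberg adjustment, against 51.8% of all 5039 probe sets tested. They were both probe sets of Aldoc, both of Hk2, 1 of Hk1 and the Aldoa probe set. Over the 15 pairs of groups, 25 of 150 member tests passed, against 15.8% of all such tests. In F1 against the mean of its parents 4 of 10 passed, against 35.2% of all. The shares of members called were thus near those of the whole array, and the genes are described one by one. Signals are the linear, arbitrary units of the array. Changes are differences of mean log2 signal with their standard errors (SE) over 5 arrays a group, after signals below 18.3 had been set to that value. In bulk tissue, fewer cells of a type and less RNA per cell cannot be told apart.

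Aldoc was lowest in Cop and highest in BUF/N on both of its probe sets. The brighter one, M63656_s_at, read 758.8, 739.0, 1128.9, 661.8 and 801.8 in F1, and 108.4, 147.3, 515.5, 180.8 and 523.0 in Cop. It read 762.9, 648.2, 348.4, 581.7 and 516.3 in F344 and 721.5, 534.5, 372.9, 544.5 and 365.8 in ACI. It read 1185.3, 1234.6, 1327.5, 973.5 and 741.9 in BUF/N and 591.1, 669.9, 1024.3, 468.6 and 470.5 in WF. Cop held 3 arrays below every other array of the series and 2, Cop 3 and Cop 5, within the range of F344 and ACI, while every F1 array lay above every Cop array.

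The order of the group means was the same on both probe sets, BUF/N, F1, WF, F344, ACI and Cop from high to low. On M63656_s_at the means were 818.1 ± 181 in F1, 295 ± 206.3 in Cop, 571.5 ± 154.5 in F344, 507.8 ± 146.7 in ACI, 1093 ± 235.1 in BUF/N and 644.9 ± 228.6 in WF (SD, n = 5 each). On X06984cds_s_at they were 626.9 ± 169.6 in F1, 177.9 ± 103.3 in Cop, 338 ± 68.32 in F344, 242.5 ± 82.16 in ACI, 758.3 ± 252.6 in BUF/N and 508.1 ± 267.3 in WF (SD, n = 5 each). Neighbours in this order did not differ beyond their spread on X06984cds_s_at, and on M63656_s_at Cop and ACI alone did so. On the F test the adjusted p was 0.000147 for M63656_s_at and 4.39e-05 for X06984cds_s_at.

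Aldoc was higher in F1 than in Cop on both probe sets. The log2 change, F1 minus Cop, was 1.75 (SE 0.329, adjusted p = 0.000304 in limma) on M63656_s_at and 1.95 (SE 0.347, adjusted p = 0.000169) on X06984cds_s_at, and the arrays of F1 and Cop did not overlap. In this pair 2 of 10 members were called, against 26.3% of all probe sets. F1 also lay above the mean of its parents, by 1.15 (SE 0.285, adjusted p = 0.00268) on M63656_s_at and by 1.40 (SE 0.301, adjusted p = 0.000732) on X06984cds_s_at. Against F344 alone F1 was 0.54 higher (95% interval -0.132 to 1.21, adjusted p = 0.214) on M63656_s_at and 0.86 higher (0.151 to 1.57, adjusted p = 0.0575) on X06984cds_s_at, which did not pass.

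Aldoc was lower in Cop than in BUF/N by the largest changes of this gene, with a log2 change, Cop minus BUF/N, of -2.16 (SE 0.329, adjusted p = 2.03e-05 in limma) on M63656_s_at and -2.21 (SE 0.347, adjusted p = 3e-05) on X06984cds_s_at, with no overlap of the arrays. Here 3 of 10 members were called, against 23.3% of all probe sets. Cop was lower than WF by -1.37 (adjusted p = 0.00498) on M63656_s_at and -1.55 (adjusted p = 0.00273) on X06984cds_s_at, where 3 of 10 members were called, against 12.8% of all. With only the Cop and WF arrays in the fit, the M63656_s_at difference had an adjusted p of 0.051.

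Cop and F344, the parents of the hybrid, differed in Aldoc on M63656_s_at alone, by a log2 change of -1.21 (SE 0.329, adjusted p = 0.0324 in limma), and the arrays overlapped. X06984cds_s_at read 90.7, 123.2, 248.9, 102.7 and 324.1 in Cop and 429.2, 352.1, 242.5, 355.3 and 310.9 in F344, and its change of -1.09 (SE 0.347) had an adjusted p of 0.0838. The pools lay in the same direction, with 259.6 in the Cop pool and 574.2 in the F344 pool on M63656_s_at. The M63656_s_at call was lost when Cop 1, Cop 2, Cop 4, F344 1, F344 2, F344 4 or F344 5 was left out, with adjusted p of 0.13, 0.13, 0.1, 0.1, 0.085, 0.074 and 0.061 in that order. It was also lost with no filter on low signals (adjusted p = 0.08) and with only the Cop and F344 arrays in the fit (0.12). In this pair 2 of 10 members were called, against 3.45% of all probe sets. The other one was D26393exon_s_at of Hk2, which was tested because F344 was high, as described below. The Cop minus ACI call on M63656_s_at (log2 change -1.04, adjusted p = 0.0486) was lost in 22 of 30 fits that left out 1 array, and without Cop 1 its adjusted p was 0.19. It was the 1 member of 10 called in that pair, against 7.6% of all probe sets.

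Aldoc was lower in ACI and in F344 than in BUF/N. The log2 change on X06984cds_s_at was -1.65 for ACI minus BUF/N (SE 0.347, adjusted p = 0.00154 in limma) and -1.12 for F344 minus BUF/N (SE 0.347, adjusted p = 0.0213). On M63656_s_at it was -1.12 for ACI minus BUF/N (SE 0.329, adjusted p = 0.0209) and -0.95 for F344 minus BUF/N (SE 0.329, adjusted p = 0.0352). Aldoc supplied both of the 2 members called in ACI minus BUF/N, against 13.7% of all probe sets. Without ACI 5 the M63656_s_at call against ACI had an adjusted p of 0.066, and without BUF/N 3 one of 0.054. The F344 minus BUF/N call had an adjusted p of 0.06 on X06984cds_s_at without F344 3 or without BUF/N 2 and 0.05 without BUF/N 3, and on M63656_s_at it was lost without F344 3, F344 4, F344 5, BUF/N 1, BUF/N 2 or BUF/N 3, at most at 0.11. On both probe sets that call was also lost with array median centring and with a score of skeletal muscle markers as a covariate. On M63656_s_at the adjusted p was 0.087 and 0.17 in these settings, and 0.071 with no filter. F1 was higher than ACI on X06984cds_s_at, by 1.39 (SE 0.347, adjusted p = 0.00392), with no overlap of the arrays, though without F1 2, F1 3, ACI 2 and ACI 5 it was 1.23 (adjusted p = 0.059), while on M63656_s_at the change of 0.71 had an adjusted p of 0.102. In this pair 2 of 10 members were called, against 29.2% of all.

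**Figure D1:**
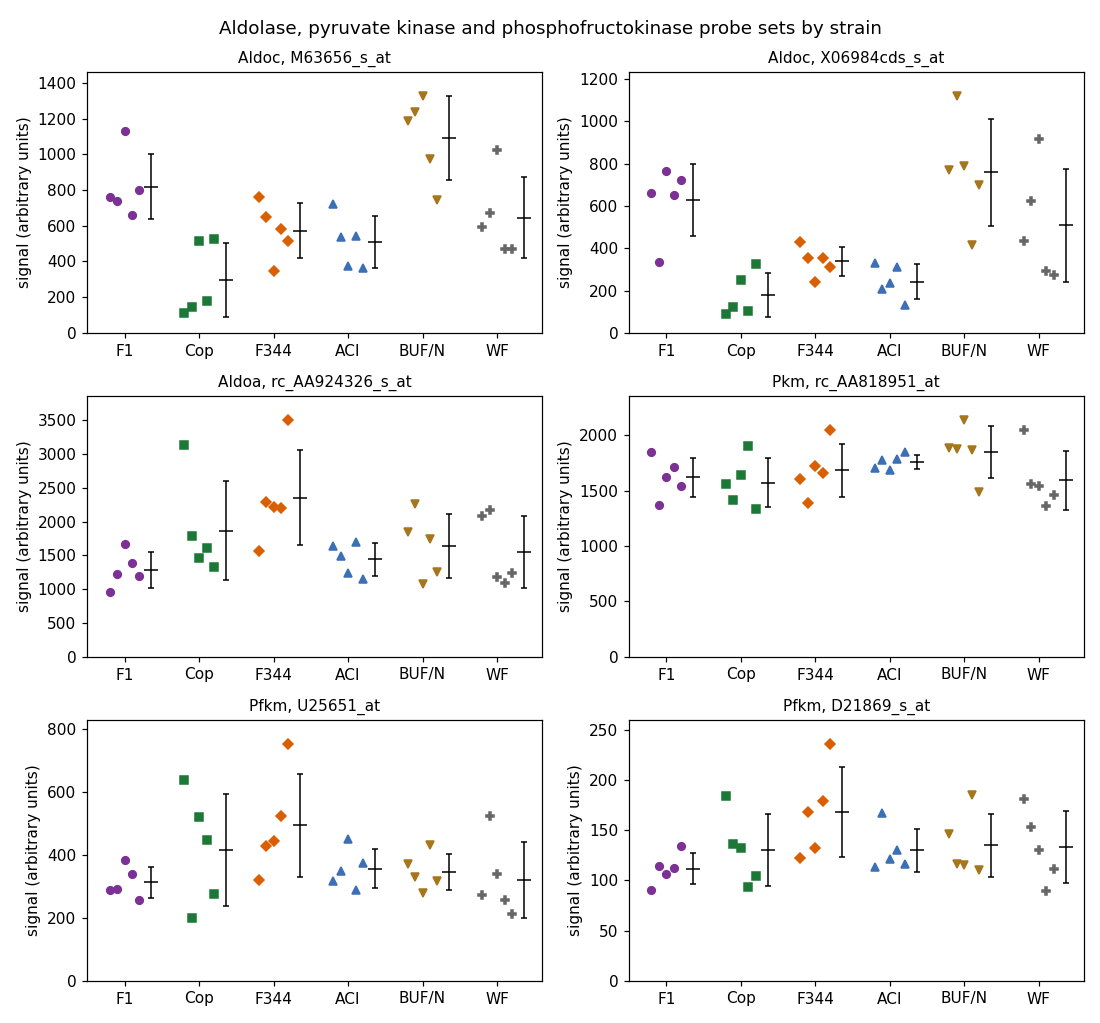
Deposited signal (arbitrary units, axes from 0) of the aldolase, pyruvate kinase and phosphofructokinase probe sets on each of 30 arrays, by group. Points are arrays and black bars are the mean and SD of 5 arrays. Aldoc is high in F1 and BUF/N and lowest in Cop, where Cop 3 and Cop 5 sit above the other 3 arrays, while Pkm lies between 1336.1 and 2138.7 on all arrays.

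The level of Aldoc moved with markers of luminal epithelium, the cells that line the mammary ducts and alveoli. The 7 luminal markers with a tested probe set were Cldn3, Krt19, Krt8, Cldn7, Muc1, Epcam and Krt18. None was at the floor on any array, and all 7 differed among the groups by the F test, against 51.8% of all probe sets. Their summed signal was 4907.1 to 7833.9 in F1, 2274.8 to 4500.3 in Cop, 4360 to 6168.2 in F344, 3799.5 to 6178.2 in ACI, 6825.5 to 8535.1 in BUF/N and 6353 to 8447.5 in WF. Cop 3 and Cop 5, the Cop arrays with high Aldoc, also had the highest luminal scores of Cop, -0.42 and -0.37, against -1.21, -0.87 and -1.18 in Cop 1, Cop 2 and Cop 4. A score is the mean log2 signal of the markers, each centred over the 30 arrays.

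Markers of myoepithelium and smooth muscle, the contractile cells around ducts and vessels, were also unequal. Of 8 tested, Actg2, Cnn1, Tagln, Myh11, Krt14, Krt5, Acta2 and Oxtr, 7 were higher in F1 than in Cop, against 26.3% of all probe sets called there in either direction. In Cop 6 of them were lower than in BUF/N, against 12.2% of all probe sets called lower there. None was at the floor on any array. Their summed signal was 10557 to 13432 in F1, 5251.9 to 8348.2 in Cop, 6345.1 to 7845.9 in F344, 7559.6 to 10373 in ACI, 8173.7 to 9752.8 in BUF/N and 9341.7 to 12377 in WF. Cop 3 and Cop 5 again had the highest scores of Cop, -0.25 and -0.14, against -0.72, -0.62 and -0.56 in Cop 1, Cop 2 and Cop 4. The part of these cells in the level of Aldoc was not tested.

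Within groups, after the group means were taken off, Aldoc and the luminal score rose and fell together over the 30 arrays. Pearson's r was 0.869 and Spearman's rho 0.895 for X06984cds_s_at, each with a permutation p of 1e-05, the smallest that 100000 permutations can give, and 3e-04 after adjustment over 30 relations (10 probe sets against 3 marker lists). For M63656_s_at r was 0.769 (permutation p = 0.00025, adjusted 0.00375) and rho 0.756 (permutation p = 0.00017, adjusted 0.00255). Without Cop 5 and F1 2, the arrays whose scores deviated most from their group means, r was 0.832 for X06984cds_s_at and 0.764 for M63656_s_at. The 2 Aldoc probe sets followed each other in the same way, with r = 0.803 (permutation p = 2e-05, adjusted over 4 genes 8e-05) and rho = 0.809, and r = 0.755 without Cop 5 and Cop 3.

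With the luminal score as a covariate, an alternative chosen after seeing the data, the difference F1 minus Cop in Aldoc was 0.04 (SE 0.361) on M63656_s_at and -0.09 (SE 0.307) on X06984cds_s_at, and Cop minus BUF/N was 0.05 (SE 0.43) and 0.43 (SE 0.366) on the same probe sets. The F test of M63656_s_at no longer passed (adjusted p = 0.13), and that of X06984cds_s_at still did (adjusted p = 0.0072). F1 minus ACI on X06984cds_s_at was 0.70 (SE 0.206, adjusted p = 0.015 in limma) in that fit. It was the one Aldoc difference between 2 groups, of those called without the covariate, that was also called with it.

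**Figure D2:**
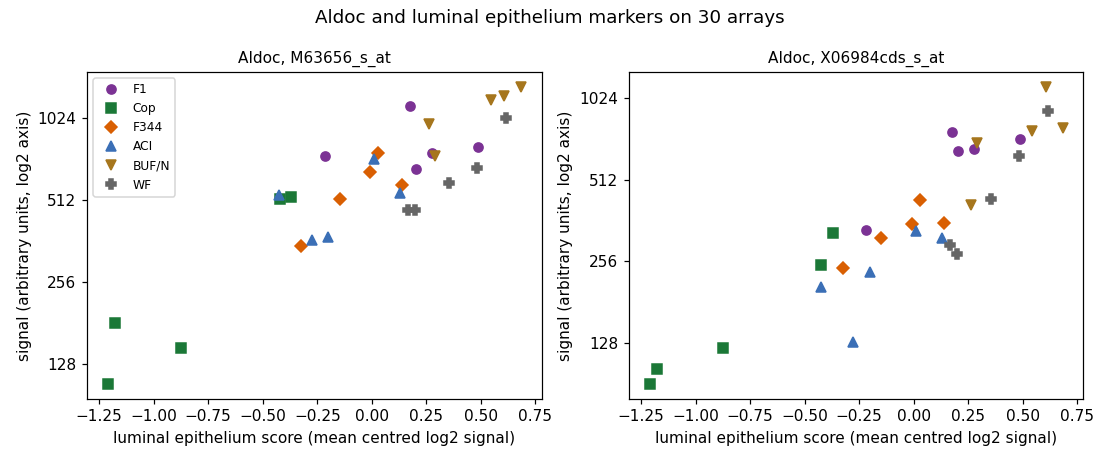
Signal of the 2 Aldoc probe sets (arbitrary units, log2 axis) against the luminal epithelium score (mean centred log2 signal of 7 markers) on 30 arrays, with one symbol and colour per group. Arrays with a higher score have more Aldoc, and Cop 1, Cop 2 and Cop 4 lie apart at the lower left.

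The genes whose signals were most like Aldoc over the 30 arrays, by Pearson's r among 4199 tested probe sets that have 1 symbol, were Sox10 (0.863), Krt19 (0.861), Olah (0.851), Csn3 (0.85) and Scnn1b (0.848) for M63656_s_at. For X06984cds_s_at they were Krt19 (0.876), Cldn3 (0.874), Scnn1b (0.863), Ctsc (0.848) and Krt8 (0.846). Krt19 and Krt8 are keratins and Cldn3 a tight junction protein of epithelia, Scnn1b is a subunit of the epithelial sodium channel, Csn3 is the milk protein kappa-casein, and Olah is a thioesterase that shortens the fatty acids of milk. Krt19, Krt8 and Cldn3 are in the luminal list used here. Sox10, the gene most like M63656_s_at, Olah, Csn3, Scnn1b and Ctsc belong to none of the marker lists. These correlations describe likeness only, since the arrays share their groups.

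Hk2 stood apart in F344 on D26393exon_s_at. This probe set read 24.1, 43.2, 27.0, 26.4 and 68.0 in F1, 68.9, 28.1, 31.9, 25.8 and 49.2 in Cop, and 181.0, 146.5, 172.8, 69.5 and 179.5 in F344. It read 86.9, 21.7, 44.7, 38.3 and 19.9 in ACI, 20.1, 42.9, 15.8, 12.4 and 63.9 in BUF/N, and 32.7, 67.8, 65.3, 87.0 and 68.3 in WF. Of the F344 arrays, 4 lay above every array of the other groups, and F344 4 lay within the range of ACI and WF. In BUF/N 2 arrays were below the floor. The probe set is dim. It passed the filter on low signals through 6 arrays above the overall median of 78.4, 4 of them from F344, so under that filter it was tested because F344 was high, and it dropped out when 15 such arrays were asked for. The fit with no filter, which tests every probe set that is not a control, is therefore given beside each call.

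The mean of D26393exon_s_at was 37.74 ± 18.54 in F1, 40.78 ± 18.2 in Cop, 149.9 ± 47.02 in F344, 42.3 ± 27.1 in ACI, 31.02 ± 21.91 in BUF/N and 64.22 ± 19.64 in WF (SD, n = 5 each). The F test of D26393exon_s_at had an adjusted p of 0.000514 in limma, and 0.0017 with no filter. F344 was higher in Hk2 on this probe set than 4 of the other 5 groups. The log2 change was -2.03 for F1 minus F344 (SE 0.421, adjusted p = 0.000698 in limma, and 0.0018 with no filter) and -1.90 for Cop minus F344 (SE 0.421, adjusted p = 0.00627, and 0.017 with no filter). It was 1.96 for F344 minus ACI (adjusted p = 0.00235, and 0.0054 with no filter) and 2.32 for F344 minus BUF/N (adjusted p = 0.000335, and 0.00095 with no filter). The sizes depend on how low signals are treated, and 2 BUF/N arrays had been raised to the floor. F344 minus BUF/N was 2.47 with a floor at the 10th percentile, 1.49 at the 40th percentile and 1.30 with an offset of 50 added to each signal, and with that offset F1 minus F344 was -1.17, Cop minus F344 -1.12 and F344 minus ACI 1.12. In F1 minus F344 3 of 10 members were called, against 31.7% of all probe sets, and in F344 minus ACI 1 of 10, against 12.3%. Against WF the change was 1.21 (95% interval 0.351 to 2.07, adjusted p = 0.0591), which did not pass. The pools read 53 for Cop and 169.2 for F344, a log2 ratio, Cop over F344, of -1.67 with no test.

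In the hybrid, Hk2 on D26393exon_s_at lay below the midpoint of the parents. F1 minus Cop was -0.13 (95% interval -0.987 to 0.732, adjusted p = 0.859 in limma), and F1 minus the mean of Cop and F344 was -1.08 (SE 0.364, adjusted p = 0.0216, and 0.04 with no filter). The call against the parental mean was lost without F1 1, F1 3 or F1 4 (adjusted p of 0.063, 0.064 and 0.053), with quantile normalization (0.058), with the muscle score as a covariate (-0.915, adjusted p = 0.17), with the luminal score (0.12) and without F1 2, F1 3, ACI 2 and ACI 5 (0.064). The calls of F344 against F1, Cop, ACI and BUF/N held without each array in turn. With the skeletal muscle score as a covariate Cop minus F344 was -1.82 (SE 0.445, adjusted p = 0.019) and F1 minus F344 was -1.82 (SE 0.539, adjusted p = 0.033), and with the luminal score Cop minus F344 was -1.87 (SE 0.593, adjusted p = 0.18). Without ACI 2 and ACI 5 together with F1 2 and F1 3, F344 minus ACI was 1.42 (adjusted p = 0.06).

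The brighter Hk2 probe set, M68971_at, showed another order. It read 190.0, 134.2, 142.7, 188.1 and 211.4 in F1, 166.1, 145.4, 158.0, 179.4 and 113.3 in Cop and 211.8, 154.3, 175.4, 191.9 and 205.4 in F344. It read 217.4, 254.3, 208.9, 181.9 and 184.8 in ACI, 249.9, 245.3, 247.2, 216.1 and 222.9 in BUF/N and 340.1, 166.0, 208.3, 174.5 and 274.4 in WF. Every Cop array lay below every ACI and BUF/N array, and WF spread over both ranges.

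On M68971_at Hk2 was lower in Cop, 152.4 ± 25.13, than in BUF/N, 236.3 ± 15.59, and WF, 232.7 ± 73.66 (SD, n = 5 each). The log2 change was -0.65 for Cop minus BUF/N (SE 0.175, adjusted p = 0.00801 in limma) and -0.57 for Cop minus WF (SE 0.175, adjusted p = 0.0277). F1 averaged 173.3 ± 33.22, F344 187.8 ± 23.34 and ACI 209.5 ± 29.33 (SD, n = 5 each), and no neighbours in this order differed beyond their spread. Cop minus F344, the comparison in which D26393exon_s_at differed about 3.74-fold, was -0.31 here (95% interval -0.666 to 0.0493, adjusted p = 0.461), and the pools read 127.7 for Cop and 203.5 for F344. The Cop minus WF call was lost with quantile normalization (0.068), array median centring (0.069), only those 2 groups in the fit (0.098), the muscle score (0.053) and the luminal score (0.67), and without Cop 2, Cop 5, WF 1 or WF 5, with adjusted p of 0.057, 0.09, 0.11 and 0.082.

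The 2 Hk2 probe sets were not related within groups, with r = -0.185 (permutation p = 0.319) and rho = -0.138 (permutation p = 0.477) over 30 arrays and r = -0.0571 without WF 1 and WF 2. After adjustment over the 4 genes with 2 probe sets these p-values were 0.319 and 0.477. Which stretch of the transcript each probe set reads was not analysed here. The probe sets most like M68971_at over the arrays were those of Slc29a2 (r = 0.803), Cx3cl1 (0.796), Vdr (0.79), Opn1mw (0.788) and Il15 (0.783), among 4199. Those most like D26393exon_s_at were Gsto1 (0.758), Marchf8 (0.694), Pgm1 (0.686), Pparg (0.681) and Acvr1c (0.667). Pparg is the master regulator of adipocyte differentiation and Pgm1 links glycogen to glycolysis. Within groups, D26393exon_s_at had r = 0.119 with a score of adipocyte markers (permutation p = 0.572).

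**Figure D3:**
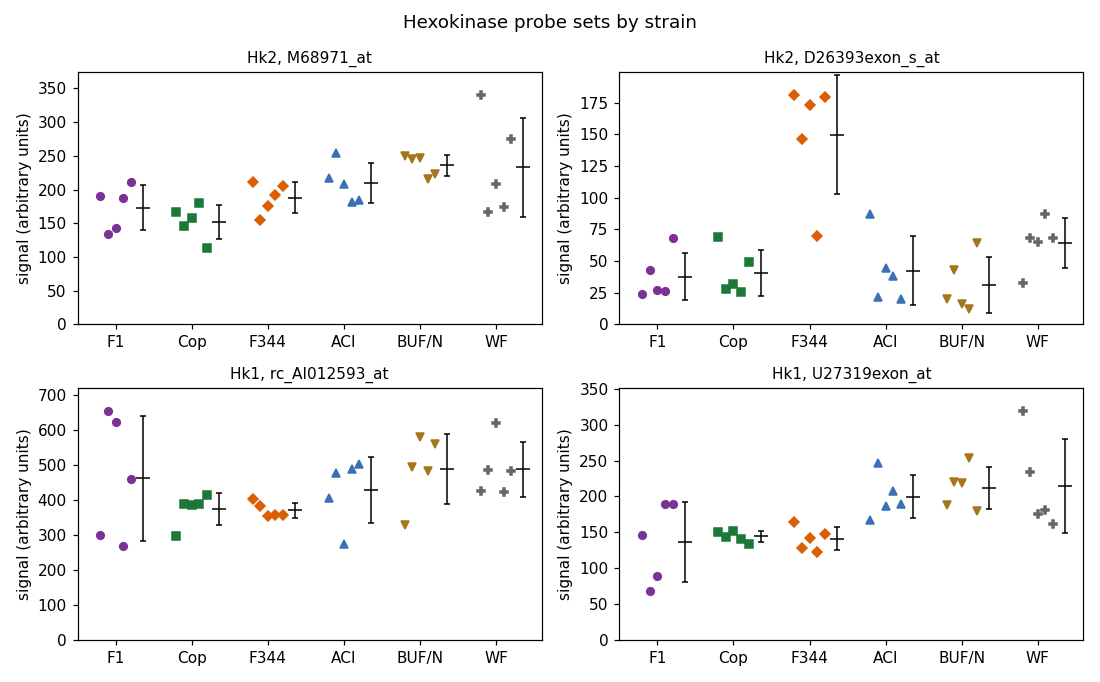
Deposited signal (arbitrary units, axes from 0) of the 4 hexokinase probe sets on each of 30 arrays, by group. Points are arrays and black bars are the mean and SD of 5 arrays. D26393exon_s_at of Hk2 is high on 4 of 5 F344 arrays, whereas M68971_at of Hk2 and U27319exon_at of Hk1 are lower in F1, Cop and F344 than in BUF/N on average.

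Hk1 differed on U27319exon_at and did not pass on rc_AI012593_at (F test, adjusted p = 0.0101 and 0.342 in limma). U27319exon_at read 145.7, 68.2, 89.6, 189.6 and 188.7 in F1, 150.2, 143.8, 152.1, 140.9 and 133.5 in Cop and 164.4, 127.9, 142.0, 123.1 and 147.7 in F344. It read 167.3, 246.6, 186.2, 207.6 and 189.1 in ACI, 188.5, 220.1, 218.7, 253.8 and 179.4 in BUF/N and 319.6, 234.2, 175.4, 180.9 and 161.5 in WF. All Cop and F344 arrays lay below all BUF/N and ACI arrays, and F1 2 and F1 3 were the lowest arrays of the series.

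The log2 change of U27319exon_at was -0.65 for F1 minus ACI (SE 0.217, adjusted p = 0.0252 in limma), -0.74 for F1 minus BUF/N (SE 0.217, adjusted p = 0.0189) and -0.72 for F1 minus WF (SE 0.217, adjusted p = 0.0234). In F1 minus BUF/N and in F1 minus WF it was the 1 member of 10 called, against 17.3% and 15.2% of all probe sets. These calls rested on F1 2 and F1 3. Without these arrays and ACI 2 and ACI 5 the change was -0.10 for F1 minus ACI, -0.28 for F1 minus BUF/N and -0.26 for F1 minus WF, with adjusted p of 0.8, 0.31 and 0.39. In the same order the adjusted p was 0.11, 0.054 and 0.075 with quantile normalization and 0.2, 0.061 and 0.072 with array median centring. Without F1 2 the adjusted p was 0.12 against ACI, 0.091 against BUF/N and 0.12 against WF, and without F1 3 it was 0.089, 0.068 and 0.086. Leaving out ACI 2 (0.074), BUF/N 4 (0.052), WF 1 (0.084) or WF 2 (0.055) ended the call against that strain. The F344 minus BUF/N call (log2 change -0.59, adjusted p = 0.0488) was lost in 20 of 30 fits that left out 1 array, at most at 0.11 without BUF/N 4. In that pair 4 of 10 members were called, against 23.8% of all probe sets.

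The median signal of an array was 65.8 to 76.8 in F1, 71.7 to 77.3 in Cop, 68.9 to 77.1 in F344, 77.4 to 102.1 in ACI, 80.1 to 83.7 in BUF/N and 78.4 to 86.8 in WF, the same split as for M68971_at of Hk2 and U27319exon_at of Hk1. With each array centred on its median, the F tests of these 2 probe sets no longer passed (adjusted p = 0.089 for M68971_at and 0.079 for U27319exon_at). With quantile normalization the F test of M68971_at had an adjusted p of 0.081, and with the luminal score as a covariate 0.16. Cop minus BUF/N on M68971_at was still called under centring, but with the luminal score it was -0.75 (SE 0.344, adjusted p = 0.52 in limma). The other and brighter Hk1 probe set, rc_AI012593_at, ran from 269.6 to 655.3 over all arrays with group means between 370.5 in F344 and 488.9 in BUF/N. It read 655.3 in F1 2 and 621.9 in F1 3, the arrays where U27319exon_at was lowest. Its F1 mean of 461.2 lay within that range of group means. Within groups the 2 Hk1 probe sets had r = -0.442 (permutation p = 0.156, adjusted over 4 genes 0.208) and rho = -0.266 (permutation p = 0.25, adjusted 0.333).

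Aldoa and Pfkm had their highest mean signals in F344 and their lowest in F1 on all 3 of their probe sets. Aldoa read 959.6, 1227.3, 1669.5, 1385.4 and 1193.1 in F1, 3133.5, 1779.8, 1464.0, 1609.6 and 1327.4 in Cop, and 1569.0, 2289.8, 2218.0, 2196.5 and 3504.0 in F344. It read 1639.3, 1489.6, 1238.9, 1697.8 and 1146.6 in ACI, 1843.3, 2266.7, 1080.0, 1739.8 and 1250.1 in BUF/N, and 2077.5, 2170.5, 1177.6, 1092.3 and 1232.6 in WF. Cop 1 and F344 5 were the highest arrays, and the ranges of the groups overlapped.

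Aldoa was lower in F1 than in F344, with a log2 change of -0.85 (SE 0.24, adjusted p = 0.00881 in limma), and lower in F1 than the mean of Cop and F344, with a change of -0.67 (SE 0.208, adjusted p = 0.0138). With the luminal score as a covariate the change against that mean was -0.47 (SE 0.283, adjusted p = 0.24). The F test of Aldoa was at the threshold (adjusted p = 0.0495) and was lost in 20 of 30 fits that left out 1 array, at most at 0.16 without F344 5. It held in 6 of the 14 settings other than leaving out 1 array, and had an adjusted p of 0.1 with no filter. The D21869_s_at probe set of Pfkm was lower in F1, 111.8 ± 15.59, than in F344, 167.9 ± 45 (SD, n = 5 each), with a log2 change of -0.56 (SE 0.208, adjusted p = 0.0406). That call was lost without F1 1, F1 2, F1 3, F1 4, F344 2, F344 4 or F344 5, with adjusted p between 0.053 and 0.14. It held in 7 of the 15 settings other than leaving out 1 array. The brighter Pfkm probe set, U25651_at, averaged 312 ± 49.76 in F1 and 493.1 ± 162.2 in F344 (SD, n = 5 each), and its change of -0.62 (SE 0.257) had an adjusted p of 0.0667. Within groups the 2 Pfkm probe sets had r = 0.466 (permutation p = 0.0389, adjusted over 4 genes 0.0778) and rho = 0.429 (permutation p = 0.05, adjusted 0.1), with r = 0.549 without Cop 2 and WF 2.

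Skeletal muscle markers moved with the same groups. Pfkm is the muscle form of phosphofructokinase and Aldoa is abundant in muscle. The 14 muscle markers tested were Myh1, Myh4, Casq1, Myl1, Cox6a2, Tnni2, Tcap, Tnnt3, Pvalb, Acta1, Atp2a1, Tnnc2, Ckm and Cox8b, and all 14 were lower in F1 than in F344, against 15.4% of all probe sets called lower there and 16.3% called higher. Their summed signal was 404.9 to 3649.2 in F1, 860.3 to 25713 in Cop, 5622.8 to 28421 in F344, 2305.1 to 13838 in ACI, 885.7 to 7386.4 in BUF/N and 845.5 to 10258 in WF. Tcap was at the floor on 15 of 30 arrays and Tnni2 on 8, and the other 12 markers were at the floor on at most 3. The list held 26 genes, of which 20 were on the array and 14 were tested after the filter on low signals. A marker dim in F1 could pass that filter through groups with more muscle signal, F344 among them. The count of 14 of 14 is therefore not independent of the filter, and no count without it is given here.

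Within groups, U25651_at of Pfkm followed the muscle score over the 30 arrays, with r = 0.696 (permutation p = 0.00061, adjusted over 30 relations 0.0061) and rho = 0.611 (permutation p = 0.00157, adjusted 0.0157), and r = 0.549 without Cop 2 and WF 2. For Aldoa r was 0.563 (permutation p = 0.00658, adjusted 0.0494) and rho 0.514 (permutation p = 0.0107, adjusted 0.0802), with r = 0.581 without the same 2 arrays. D21869_s_at of Pfkm had r = 0.395 (permutation p = 0.0692, adjusted 0.297) and rho = 0.379 (permutation p = 0.0626, adjusted 0.268), with r = 0.45 without those arrays. With the muscle score as a covariate, F1 minus F344 was -0.30 (SE 0.262, adjusted p = 0.51 in limma) for Aldoa and -0.25 (SE 0.253, adjusted p = 0.58) for D21869_s_at, and F1 minus the mean of its parents was -0.23 (SE 0.22, adjusted p = 0.52) for Aldoa.

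**Figure D4:**
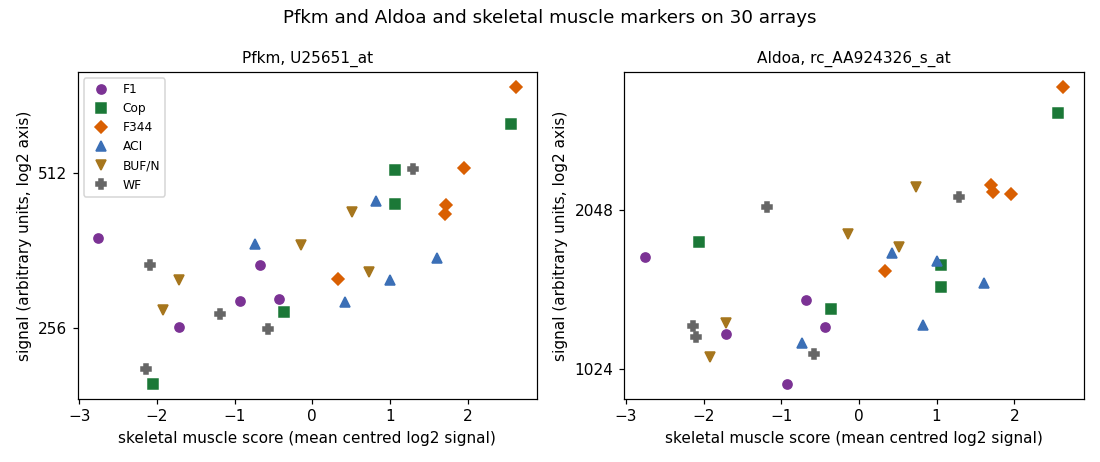
Signal of U25651_at of Pfkm and of the Aldoa probe set (arbitrary units, log2 axis) against the skeletal muscle score (mean centred log2 signal of 14 markers) on 30 arrays, with one symbol and colour per group. Cop 1 and 4 of the 5 F344 arrays have the highest scores, and all F1 arrays have scores below 0.

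Pkm, the last enzyme of the pathway to pyruvate, was bright and varied little. Its group means were 1619 ± 179.3 in F1, 1571 ± 220.4 in Cop, 1683 ± 239.4 in F344, 1760 ± 64.57 in ACI, 1850 ± 233.4 in BUF/N and 1592 ± 266.3 in WF (SD, n = 5 each), a range of 1.18-fold. The F test of Pkm did not pass (adjusted p = 0.425 in limma), nor did those of the Pfkm probe sets U25651_at (0.225) and D21869_s_at (0.274). No member was called in F344 minus WF, ACI minus WF or BUF/N minus WF, against 11.3%, 7.18% and 2.22% of all probe sets by limma, and 4, 1 and 2 members had an unadjusted p under 0.05 there.

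The 3 probe sets that Gapdh, Ldha and Tpi1 share with related symbols each differed among the groups, against 51.8% of all probe sets. The transcript behind each signal is uncertain. M17701_s_at, listed for Gapdh, Gapdhl10 and Gapdh-ps118, averaged 1586 ± 569.6 in F1, 2502 ± 655.4 in Cop, 3705 ± 893.2 in F344, 2610 ± 589.9 in ACI, 2103 ± 129 in BUF/N and 1952 ± 364.5 in WF (SD, n = 5 each). Every F344 array lay above every F1, BUF/N and WF array (F test, adjusted p = 0.000785 in limma), and with the muscle score as a covariate the F test had an adjusted p of 0.074. M54926_at, listed for Ldha and Ldhal1, averaged 2975 in Cop and 2052 in BUF/N, the lowest group, and was 0.54 higher in Cop on the log2 scale (SE 0.113, adjusted p = 0.00088), with no overlap of the arrays. rc_AI104399_at, listed for Tpi1, Tpi1l1 and Tpi1l2, averaged 1260 in F1, 1844 in Cop, 1811 in F344 and 1145 in BUF/N, and Cop minus BUF/N was 0.69 (SE 0.159, adjusted p = 0.00232), again with no overlap. With the luminal score as a covariate its F test had an adjusted p of 0.067.

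The rest of the pathway was read from 4 lists of genes. Of 8 tested genes for other steps of glycolysis, 4 differed among the groups by the F test, Eno3, Pfkp, Pgam2 and Ldhb, against 51.8% of all probe sets. Eno3 and Pgam2 are the muscle forms of enolase and phosphoglycerate mutase. Eno3 averaged 4.94 in F1, where all 5 arrays were at or below the floor of 18.3, 199.5 in Cop, 310.5 in F344, 87.16 in ACI, 27.5 in BUF/N and 37.96 in WF (F test, adjusted p = 0.00159 in limma). Pgam2 averaged 20.04 in F1 and 163.2 in F344 (F test, adjusted p = 0.00493). Eno3 and Pgam2 averaged below the filter's median of 78.4 in F1, so other groups carried them through that filter. With no filter the F tests of Eno3 and Pgam2 still passed. With the muscle score as a covariate the adjusted p of these F tests was 0.23 for Eno3, 0.56 for Pgam2 and 0.21 for Ldhb, the heart-type lactate dehydrogenase. Pfkp, the platelet form of phosphofructokinase, averaged 165.2 ± 33.05 in Cop, 244.5 ± 13.85 in F344 and 141 ± 19.91 in BUF/N (SD, n = 5 each), and its F test (adjusted p = 0.00188) still passed with that covariate (0.0043). In F344 minus BUF/N, 4 of the 8 were higher and 1 lower, against 10.5% and 13.3% of all probe sets, and the median log2 change was 0.44, against -0.08 over all probe sets.

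Of 7 tested transporters of glucose and lactate, 3 differed among the groups, Slc16a7, Slc2a4 and Slc5a1, against 51.8% of all probe sets. Slc2a4, the insulin-responsive glucose transporter of muscle and fat, averaged 233.2 ± 171.8 in F1, 306.5 ± 155.4 in Cop, 589.6 ± 311.9 in F344, 509.3 ± 38.78 in ACI, 247.5 ± 54.19 in BUF/N and 254 ± 33.14 in WF (SD, n = 5 each). Its F test had an adjusted p of 0.0131 in limma, and 0.19 with the muscle score. Slc16a7, a monocarboxylate transporter, was higher in Cop, at 92.72 ± 7.875, than in BUF/N, at 29.96 ± 8.838 (SD, n = 5 each), with a log2 change of 1.64 (adjusted p = 0.000112). BUF/N lay below the filter's median of 78.4 on average, so other groups carried Slc16a7 through that filter. Its F test passed in all 13 other settings in which it could be fitted, with no filter among them (adjusted p at most 0.02). Slc5a1, a sodium-glucose cotransporter, averaged 121.8 in Cop and 217.6 in BUF/N, and its F test (adjusted p = 0.0201) did not pass with array median centring (0.095). Slc2a1, the glucose transporter of most cells, did not pass (adjusted p = 0.4).

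Of 16 tested genes for the control of flux and pyruvate entry into mitochondria, 8 differed among the groups, against 51.8% of all probe sets. In F1 minus F344, 7 of the 16 were lower at the adjusted threshold in limma, against 15.4% of all probe sets called lower, with a median log2 change of -0.44 against 0.03 over all probe sets. Pdhb, the beta subunit of the first enzyme of the pyruvate dehydrogenase complex, averaged 412.8 ± 46.61 in F1, 524.5 ± 164.5 in Cop, 713.3 ± 296.6 in F344, 706.3 ± 182.8 in ACI, 243.2 ± 66.6 in BUF/N and 306.4 ± 102.6 in WF (SD, n = 5 each, F test adjusted p = 4.41e-05). Pdha1, its alpha subunit, averaged 2174 ± 164.6 in Cop, 1414 ± 134.8 in BUF/N and 1362 ± 180.2 in WF (SD, n = 5 each), and Cop minus WF was 0.68 (adjusted p = 0.000276). With the luminal score as a covariate its F test had an adjusted p of 0.057. Pdp2, a phosphatase that turns the complex on, averaged 31.9 ± 14.9 in F1, 77.78 ± 27.45 in F344 and 130.8 ± 22.94 in ACI (SD, n = 5 each, F test adjusted p = 2.34e-05). Its F1 mean lay below the filter's median of 78.4, so other groups carried Pdp2 through that filter. With no filter its F test still passed. Mdh1, cytosolic malate dehydrogenase, averaged 2089 in F1 and 3582 in F344 (F test, adjusted p = 0.00171, and 0.084 with the muscle score). Hif1a, the gene of a hypoxia-inducible factor, did not pass (adjusted p = 0.271). Whether that factor acts on any of these genes was not tested.

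Of 11 tested genes of gluconeogenesis, the pentose phosphate pathway and glycogen, 9 differed among the groups, against 51.8% of all probe sets. In F344 minus BUF/N, 5 were higher and 1 lower, against 10.5% and 13.3% of all. Pc, pyruvate carboxylase, which supplies oxaloacetate and is abundant in fat cells, averaged 395.7 ± 98.46 in F1, 737.6 ± 230 in Cop, 937.7 ± 272.9 in F344, 616.1 ± 128.7 in ACI, 326.6 ± 91.26 in BUF/N and 313.2 ± 39.89 in WF (SD, n = 5 each, F test adjusted p = 1.74e-06 in limma). Tkt, transketolase of the pentose phosphate pathway, was lower in Cop, 865.7 ± 66.54, than in F344, 1588 ± 621.5 (SD, n = 5 each), by a log2 change of -0.79 (adjusted p = 0.0402). Pygb, the brain form of glycogen phosphorylase, was higher in F1, 854.7 ± 147.4, than in Cop, 543.8 ± 82.49, and F344, 511.4 ± 70.3 (SD, n = 5 each), with log2 changes of 0.65 (adjusted p = 0.00235) and 0.73 (adjusted p = 0.000661). With the muscle score its F test had an adjusted p of 0.096. Pygl, the liver form, was lower in F1, at 85.74 ± 15.07, than in F344, at 269.3 ± 105.9 (SD, n = 5 each), by a log2 change of -1.58 (adjusted p = 0.00101).

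Adipocyte markers were also unequal. Their summed signal over 12 tested genes was 24478 to 31264 in Cop and 16043 to 21013 in BUF/N, with no overlap, and 9 of the 12 were higher in Cop than in BUF/N, against 11.1% of all probe sets called higher and 12.2% called lower. Within groups no member probe set passed the adjusted permutation test against the adipocyte score, with r between -0.299 and 0.479 over 30 arrays. The part of these differences in the levels of the glycolysis genes was not tested.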

How the data were processed

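Per the labels, total RNA was extracted from normal mammary gland, biotinylated cRNA was hybridised to 1 Affymetrix array per sample, and signals were computed by the authors with Affymetrix Microarray Suite 5.0. The deposited values are linear signal intensities for 8799 probe sets, 59 of them controls, and the trimmed mean per array (2% off each end) was 250.3 to 250.4, so the arrays had been scaled to one target. Arrays give no counts, and their number limits the precision.

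From these values, signals below the 25th percentile (18.3) were set to it and log2 transformed. The 5039 probe sets with at least 5 of 30 arrays above the overall median (78.4), controls excluded, entered a linear model with a variance trend (limma 3.58.1, R 4.3.3). Each of 15 pairs, F1 against the mean of Cop and F344, and an F test over 6 groups were adjusted by Benjamini-Hochberg over all probe sets within the comparison at 0.05. Gene symbols were those of GEO's array annotation, updated through gene identifiers for 6994 probe sets, and 1473 probe sets are unnamed here. Every member probe set is reported. In the pathway lists the brightest probe set stood for a gene, and up to 4 genes with the smallest adjusted p of the F test were named per list. Slc2a1 and Hif1a were named after their values were seen. Correlations used deviations from group means, permuted within groups. Members, lists and tests were chosen with earlier results of these data known. The fitting was tested on simulated data.

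Replicate numbers in the labels did not pair the samples. Over 75 same-numbered pairs of arrays, the correlation of deviations from group means had a median of -0.0158 and ran from -0.452 to 0.398. The alternatives were other floors, an offset, no filter or one of 15 arrays, quantile normalization, median centring, no variance trend, array weights, a replicate block, each pool counted as a further sample of its strain, fits on the compared groups alone, leaving out arrays, and marker scores as covariates. A fit without F1 2, F1 3, ACI 2 and ACI 5 was among them. The median correlation with arrays of the same group was lowest in F1 2 (0.877) and F1 3 (0.885). The median signal was highest in ACI 2 (102.1) and ACI 5 (101.8).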

Additional observations from a re-analysis of the deposited data

Results flagged for a closer look

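In 3 of 60 groups of 5 arrays, 1 array stood apart from the other 4 (Dixon's test at the 95% level), and chance flags about 1 group in 20. The rc_AI012593_at signal of Hk1 was 296.2 in Cop 1, against 386 to 413.2 in the other Cop arrays. The D26393exon_s_at signal of Hk2 was 69.5 in F344 4, against 146.5 to 181 in the other F344 arrays. The X06984cds_s_at signal of Aldoc was 335.1 in F1 2, against 651.4 to 763.7 in the other F1 arrays, and F1 2 also had the lowest luminal epithelium score of F1, -0.22 against 0.18 to 0.49 in the others. The part of the score in that value was not tested.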

How the results depend on the processing

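In this study of 5 arrays a group the number of arrays limits the precision, and D26393exon_s_at of Hk2 is also limited by its low signal. The count of members passing was 5 to 6 for the F test, 20 to 25 over the pairs and 3 to 5 for F1 against the mean of its parents when each array was left out in turn. With the skeletal muscle score as a covariate 2 members passed in F1 against its parents, against 15.4% of all probe sets. With the luminal epithelium score as a covariate, added after seeing the data, 3 members passed the F test (34.7% of all probe sets), 9 passed over the pairs (7.84%), and 0 passed by limma in F1 against its parents (20.1%), where 1 had an unadjusted p under 0.05. These covariates take up differences between the groups themselves. Signs turned under the luminal covariate alone, in Aldoc. On M63656_s_at the log2 change became 0.0726 for Cop minus F344, 0.0879 for Cop minus ACI, 0.0456 for Cop minus BUF/N and 0.643 for Cop minus WF. On X06984cds_s_at it became -0.0891 for F1 minus Cop, 0.427 for Cop minus BUF/N and 0.853 for Cop minus WF, all with adjusted p of 0.5 or more. With array weights the pairs gave 35 calls (22% of all probe sets). Quantile normalization and median centring each left 4 F tests and 19 pair calls, and moved the median change of all probe sets by up to 0.103 and 0.315. Of 35 single results that passed, 4 kept their call in each of the 15 other settings in which they could be fitted and 22 in all 30 fits without 1 array. The 4 were the F test of X06984cds_s_at and, on D26393exon_s_at, the F test, F1 minus F344 and F344 minus BUF/N. D26393exon_s_at is the dim probe set that passed the filter through F344, and it could not be scored under the filter of 15 arrays. With replicate number as a block, which the pairing check did not bear out, 5 members passed the F test, 22 calls were made over the pairs and 4 for F1 against its parents, and 5 of 30 arrays correlated best with an array of their own number. The causes were not tested.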

Other observations

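The array also carries 3 control probe sets for rat hexokinase, which have the symbol Hk1 and were kept out of the gene counts and tests. The one for the middle of the transcript averaged 61.84 ± 35.41 in F1, 23.68 ± 6.855 in Cop, 52.3 ± 23.11 in F344, 70.3 ± 53.67 in ACI, 106.5 ± 47.39 in BUF/N and 113.2 ± 23.48 in WF (SD, n = 5 each). Every Cop array, at most 35.5, lay below every BUF/N and WF array, at least 52.5 and 87.3. The one for the 3' end averaged 125.3 ± 48.45 in F1, 98.38 ± 16.35 in Cop, 113.2 ± 16.57 in F344, 120.7 ± 38.68 in ACI, 125.8 ± 19.53 in BUF/N and 133.5 ± 12.35 in WF (SD, n = 5 each), so the strains differed less there. The F1 mean was near that of BUF/N there, unlike on U27319exon_at. The one for the 5' end averaged 40.5 ± 17.2 in F1, 28.58 ± 7.294 in Cop, 43.22 ± 9.535 in F344, 50.68 ± 17.24 in ACI, 57.46 ± 15.09 in BUF/N and 55.88 ± 7.166 in WF (SD, n = 5 each), and every Cop array lay below every BUF/N and WF array there too. No test was made of these probe sets.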
